A study of Drosophila melanogaster with 11 samples.

Results

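The cytosolic ribosomal protein genes of Drosophila melanogaster were taken as all rows whose symbol begins with RpL or RpS followed by a digit or a P, without the symbols that end in -like. Of 15603 genes in each table, 92 rows matched that pattern and 5 of them ended in -like, which left 87 genes. Of these, 50 encode proteins of the large (60S) subunit and 37 encode proteins of the small (40S) subunit, judged by the letter in the symbol. The rule used symbols only and no measured value.

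The cytosolic ribosome translates the messages of the nucleus. Its large subunit joins amino acids and its small subunit reads the message, and each is built from ribosomal RNA and a set of small basic proteins that are needed in nearly equal numbers. In flies and mammals their transcripts begin within a short run of pyrimidines, and in mammals Tor signalling acts on their translation through it. In flies, loss of 1 copy of many of these genes gives the Minute phenotype of slow growth and thin bristles.

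The study asked which genes respond to mitochondrial stress in adult muscle, and what stress confined to larval life leaves behind in the adult fat body, the fly tissue that stores fat and glycogen. In thorax muscle of adult females the groups were tubulinGeneSwitch crossed to UAS-dOTC, to ND75 RNAi or to w1118 as the control. All 3 received the drug RU486, which switches on the GeneSwitch driver, at 200 µM for 24 hr at 7 days of age. dOTC is a misfolding form of a human mitochondrial enzyme, and ND75 is a subunit of respiratory complex I. In fat body all groups carried DaGeneSwitch and UAS-dOTC, in a wild-type or a PGAM5 null background, with or without RU486. PGAM5 is a mitochondrial phosphatase. Larvae of the last instar were taken on the drug, and adults were taken 7 days after eclosion from animals that had received it only as larvae. No fat body library analysed here had RU486 without UAS-dOTC, so the drug and dOTC cannot be told apart there. Both drivers act in all tissues, and the study's text names the thorax driver differently from the labels.

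Each of the 11 conditions was 1 library from 15 pooled animals, so there was no replicate and no test, and every value compares libraries. The unit was FPKM, fragments per kilobase of transcript, scaled to the number of mapped fragments of the library. The steps between low values placed the depth at 2950000 to 8680000 fragments a library, of which 106521 to 930072 came from the 87 genes. Every interval given for a gene is a 95% exact binomial interval from these estimated fragments and covers counting error only. ND75 was at 53.8 FPKM under its own RNAi and at 572 FPKM in the control. Pgam5 was at 0 to 0.84 FPKM in PGAM5 null libraries and at 10.1 to 16.8 FPKM in wild-type fat body. The heading inside the adult table names larval fat body, but Yp1, a yolk protein of adult females, was at 25125 to 41899 FPKM there, and Lsp2, a serum protein of late larvae, at 6.35 to 27.1 FPKM, against 37072 to 47148 FPKM in the larval table.

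Ribosomal protein genes were among the most abundant messages in every library. In thorax they held 10.2% of all FPKM under dOTC, 10.7% under ND75 RNAi and 14.4% in the control. In larval fat body the share was 15.3% with RU486 and 13.7% without it in PGAM5 null animals, and 16.6% with RU486 and 11.2% without it in wild type. In adult fat body it was 30.8% after RU486 and 31.3% without it in PGAM5 null animals, and 29.6% after RU486 and 26.7% without it in wild type. The FPKM sum differed between libraries, so a share need not move with FPKM. In null larvae the sum was 836994 with RU486 and 1091431 without, and in null adults 873086 after RU486 and 844071 without. In both, the members' share moved opposite to their median FPKM ratio. The adult fat body libraries had the highest shares of the series, although the 3 tables may have been normalized separately. In that tissue 70 to 73 of the 100 most abundant genes were ribosomal protein genes, against 41 to 56 in larval fat body and 6 to 20 in thorax. In bulk tissue, fewer cells of a type and less RNA per cell cannot be told apart.

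**Figure D1:**
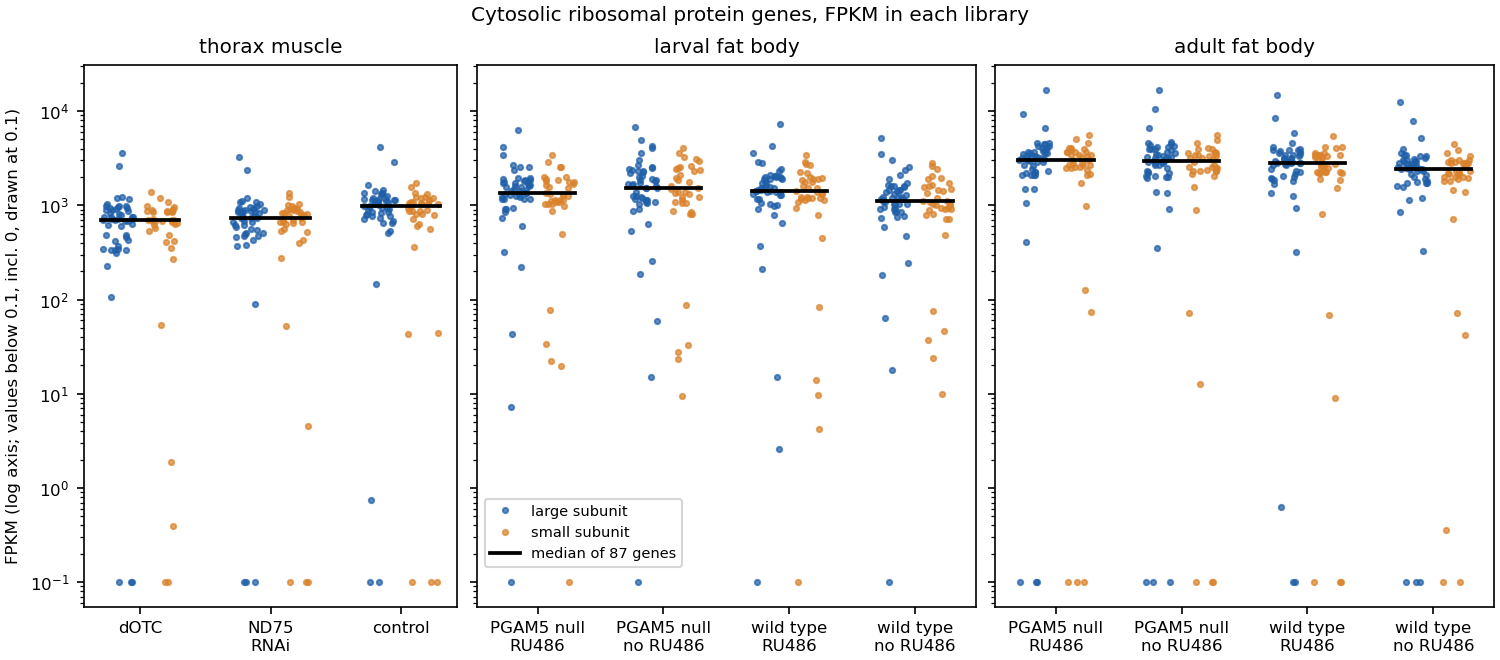
FPKM of each of the 87 genes (dots, log axis) in each of the 11 libraries, by tissue, with large-subunit genes in blue and small-subunit genes in orange; the black bar is the median of all 87. Most genes form 1 dense band around the median, near 700 to 987 FPKM in thorax and 2414 to 3037 FPKM in adult fat body, and a few paralogues lie far below it.

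Within a library most of the genes stood close together. Of the 87, 80 were at 10 FPKM or more in every library. The exceptions were RpL15, listed at 0 in all 11 libraries, and 6 paralogues that are described at the end. Genes that every cell needs should not be at 0, so that entry may be a failed estimate and not the level of RpL15. Among the 80 genes, the 90th percentile was 3.04 times the 10th percentile in dOTC thorax, 2.25 times in ND75 RNAi thorax and 2.10 times in control thorax. In adult fat body this ratio lay between 2.15 and 2.25, and in larval fat body between 2.81 and 3.60.

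The order of the genes by FPKM was much the same among libraries of 1 tissue and stage, and less so between larval libraries and the rest. RpL41, the smallest ribosomal protein, ranked first among the members in all 11 libraries, at 3592 FPKM under dOTC, 3248 under ND75 RNAi and 4196 in the thorax control. RpL39, a small protein that lines the exit tunnel, ranked second in all 11. Their annotated transcripts of 320 and 288 bases are not much longer than the estimated fragments of 160 to 185 bases, where FPKM depends most on the length correction. Over the 80 genes, Spearman's rho between libraries of the same tissue was 0.90 to 0.96 in thorax, 0.92 to 0.98 in larval and 0.96 to 0.99 in adult fat body. Between larval and adult fat body it was 0.69 to 0.83, between larval fat body and thorax 0.64 to 0.82, and between adult fat body and thorax 0.88 to 0.95. These values are descriptions across genes that share libraries.

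In thorax, nearly every ribosomal protein gene was lower under both mitochondrial stresses than in the control. With dOTC, 80 of 81 genes were below the control, where 46.7% of the 4308 genes with a control value of at least 10 FPKM were. The median log2 ratio of FPKM + 1 was -0.45 over the members, a ratio of 0.730, and 0.03 over all those genes. With ND75 RNAi, 80 of 81 genes were again below the control, where 71.5% of all genes were, and the medians were -0.41 (a ratio of 0.754) and -0.19. Set against the median ratio of all genes, 80 of 81 members were lower with dOTC and 77 of 81 with ND75 RNAi. The comparisons share the control library, so their likeness is partly built in.

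RpL32, whose message (also called RP49) was the study's reference in quantitative PCR, was at 974 FPKM under dOTC, 992 under ND75 RNAi and 1329 in the control. Its ratio to the control was 0.73 (0.70 to 0.77) with dOTC and 0.75 (0.70 to 0.79) with ND75 RNAi, close to the median of the group. RpS6, the small-subunit protein phosphorylated by S6 kinase, was at 715, 783 and 997 FPKM in the same order. Both genes were lowest in the dOTC library and highest in the control. For RpL32 the interval of dOTC over ND75 RNAi, 0.92 to 1.05, includes 1.

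The dOTC library also had the wider spread. The interquartile range of the members' log2 ratios was 0.37 with dOTC and 0.14 with ND75 RNAi, beside 0.55 and 0.49 over all genes. At least 2-fold lower were 7 of 81 members with dOTC, beside 6.66% of all genes, and 1 of 81 with ND75 RNAi, beside 8.64%. The members' share with dOTC was thus near that of all genes. Apart from the paralogue RpS5b, the dOTC genes past 2-fold were RpL4, RpL8, RpL34b, RpL35A, RpL13A and RpL18, and all of them belong to the large subunit. Without RpS5b and the other low paralogues, the median log2 ratio with dOTC was -0.51 over 47 large-subunit genes and -0.40 over 33 small-subunit genes. With ND75 RNAi it was -0.42 and -0.36. The quartiles of the subunits overlapped in both comparisons, at -0.76 to -0.33 for the large and -0.54 to -0.28 for the small subunit with dOTC.

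RpL4, which reaches into the exit tunnel, was at 311 FPKM under dOTC, 474 under ND75 RNAi and 735 in the control. RpL8, at the core of the peptidyl transferase region, was at 368, 514 and 837 FPKM. RpL34b was at 226, 374 and 514 FPKM. For each of these the dOTC library was the lowest and the ND75 RNAi library lay in between, with ratios to the control of 0.42 (0.40 to 0.45), 0.44 (0.42 to 0.47) and 0.44 (0.40 to 0.48) under dOTC.

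At the other end stood RpS15Ab, with 54.2 FPKM under dOTC, 51.8 under ND75 RNAi and 44.4 in the control. Its intervals, 0.96 to 1.55 with dOTC and 0.88 to 1.54 with ND75 RNAi, both include 1. RpL36A was at 1238, 1210 and 1363 FPKM and RpL39 at 2592, 2348 and 2857 FPKM. With dOTC their ratios were 0.91 (0.86 to 0.96) and 0.91 (0.85 to 0.97). The remaining genes lowest with ND75 RNAi were RpL18 at 430 against 710 FPKM and RpL34a at 89.4 against 146 FPKM, and the remaining highest was RpS13 at 974 against 1059 FPKM.

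**Figure D2:**
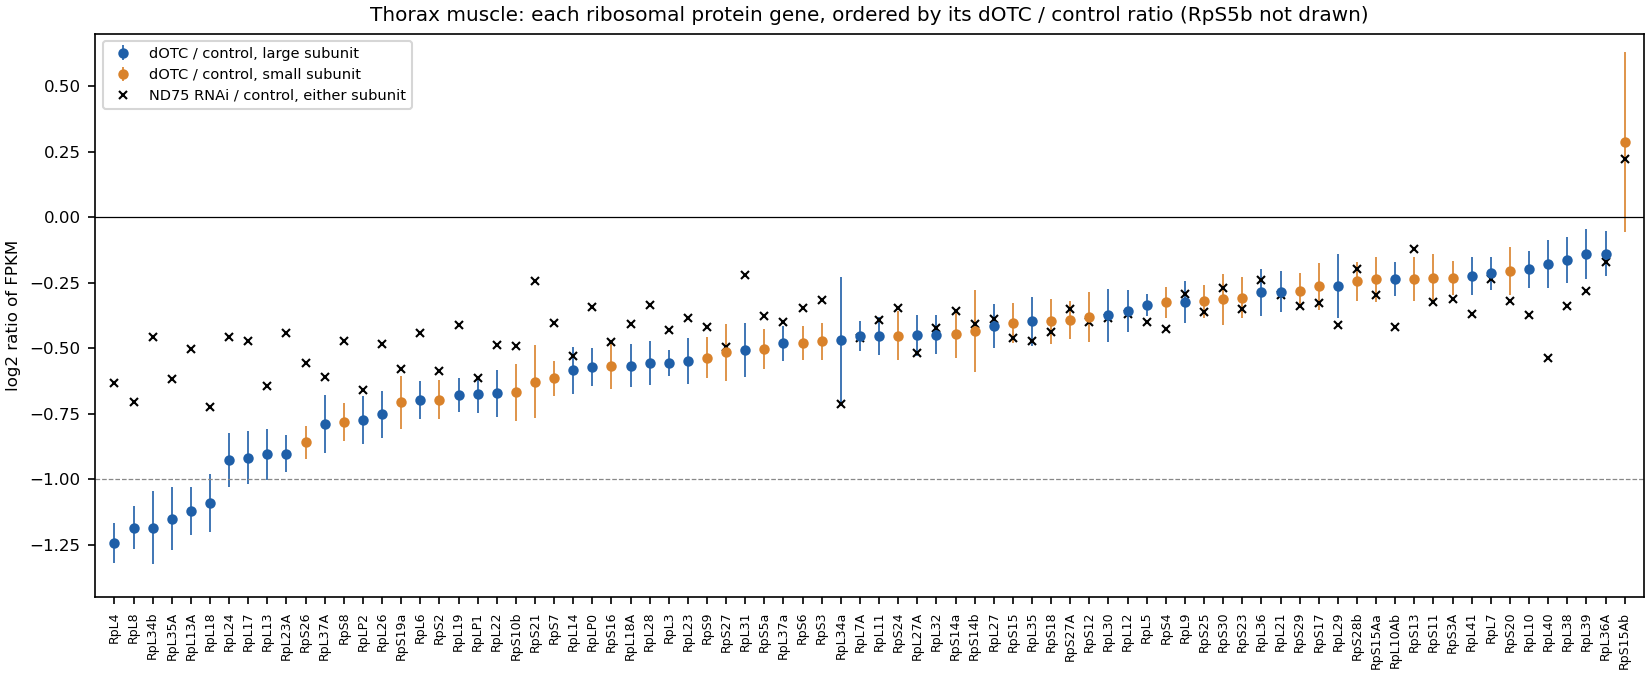
log2 ratio of FPKM to the control thorax for 80 ribosomal protein genes, ordered by the dOTC ratio: dots with 95% counting intervals for dOTC (blue large subunit, orange small subunit) and crosses for ND75 RNAi. All dots but that of RpS15Ab lie below 0, the 6 dots past the dashed 2-fold line are large-subunit genes, and the crosses cover a narrower range.

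Set directly against ND75 RNAi thorax, dOTC thorax had 50 of 80 members lower, where 30.2% of 3803 genes were. This comparison was added after the values were seen. The members' median log2 ratio was -0.06, against 0.21 for all genes, and 78 of 80 members were below the median ratio of all genes. Among these 80, which leave out RpS5b, the lowest ratios were those of RpL34b at 0.60 (0.54 to 0.68), RpL13A at 0.65 (0.60 to 0.70) and RpL4 at 0.66 (0.61 to 0.70). The highest were RpL40 at 1.28 (1.18 to 1.39), RpL34a at 1.18 (0.94 to 1.49) and RpL10Ab at 1.13 (1.07 to 1.20).

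Longer transcripts tended to have lower ratios with dOTC, with a Spearman's rho of -0.34 between the log2 ratio and the annotated transcript length over 80 genes, beside -0.22 with ND75 RNAi. The relation was not particular to thorax. For RU486 in fat body this rho was 0.43 in wild-type and 0.32 in null larvae, and -0.06 in wild-type and 0.27 in null adults. For null over wild type it lay between -0.46 and -0.24. The 946 other genes with transcripts of up to 1000 bases had a median log2 ratio of 0.02 with dOTC and -0.23 with ND75 RNAi. The thorax libraries also differed in other tissue. The summed FPKM of 28 gut digestive enzyme genes was 359 under dOTC and 138 under ND75 RNAi, against 2705 in the control, with Jon66Cii, Mal-A7 and Mal-A8 at 0 under dOTC and Jon25Bii, Jon65Ai and Jon66Cii at 0 under ND75 RNAi. Of the 28, 25 were lower with dOTC and 24 with ND75 RNAi, where 46.7% and 71.5% of all genes were. The 19 muscle genes summed to 17770, 33243 and 20801 FPKM under dOTC, ND75 RNAi and in the control. Yp1, the yolk protein gene abundant in adult fat body, was at 7163, 6060 and 7534 FPKM in the same order. Gut enzymes made up 0.46% of the control's FPKM sum. The parts of gut, muscle and fat body content in the ribosomal protein ratios were not tested.

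In wild-type larval fat body, RU486 went with higher levels of nearly all ribosomal protein genes. With the drug, 79 of 85 genes were higher, where 23.4% of 5225 genes were. The members' median log2 ratio was 0.33, a ratio of 1.26, while the median of all genes was -0.48. The 6 that were lower were RpL10Aa, RpS10a, RpL37b, RpS5b, RpS19b and RpS14b. The first 5 of these were at least 2-fold lower, which makes 5 of 85 beside 30.5% of all genes.

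The highest ratios in wild-type larvae were those of RpL22, RpL3 and RpS6. RpL22 was at 375 FPKM with RU486 and 242 without, a ratio of 1.55 (1.45 to 1.65). RpL3, which lies close to the peptidyl transferase centre, was at 1328 with RU486 and 867 FPKM without, a ratio of 1.53 (1.49 to 1.57). RpS6 was at 1208 with RU486 and 796 FPKM without, and RpL32 at 1811 with RU486 and 1384 FPKM without. Levels with RU486 were thus higher by 1.52 times for RpS6 and 1.31 times for RpL32.

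In PGAM5 null larvae most of the genes were lower with the drug on the FPKM scale, and higher once scaled to other genes. With RU486, 64 of 85 genes were lower, where 72.0% of 4828 genes were, so the members' share was near that of all genes. Their median log2 ratio was -0.21, a ratio of 0.866, and the median of all genes was -0.34, a ratio of 0.791 beside which the single genes have to be read. Against the median ratio of all genes 60 of 85 members were higher, and with the 10 most abundant genes of either library left out of the total 54 of 85 were. The median log2 ratio then came to 0.15 and 0.065. The interquartile range was 0.38, against 0.19 in wild-type larvae.

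Individual genes lay far apart in the null larvae. RpS14b was at 491 FPKM with RU486 and 855 without, a ratio of 0.57 (0.53 to 0.63). RpL23 was at 2523 with RU486 and 4099 FPKM without, and RpL10Aa at 7.26 with RU486 and 15.2 FPKM without. In the other direction RpL10, a large-subunit protein that in yeast joins late in maturation, was at 1767 with RU486 and 1254 FPKM without, a ratio of 1.41 (1.35 to 1.47). RpL38 followed at 1157 with RU486 and 874 FPKM without, and RpS3A at 1568 with RU486 and 1229 FPKM without. RpL32 was at 1596 with RU486 and 2312 FPKM without, a ratio of 0.69 (0.66 to 0.72). RpS6 was at 1094 with RU486 and 1067 FPKM without. RpL32 therefore stood lower with the drug, also against the median ratio of all genes, while the interval of RpS6, 0.98 to 1.07, includes 1.

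The lower values in null larvae were found mostly among the abundant members. Over 80 genes, Spearman's rho between the log2 ratio and the FPKM without RU486 was -0.64 in the null larvae and -0.31 in wild-type larvae. Both ratios have that FPKM as their denominator, which alone gives some negative value. The genotypes share no library in these comparisons. Of 86 genes, 59 were higher with RU486 in wild-type larvae and lower with it in null larvae, and for 77 the wild-type ratio was the larger. With both scaled to the median ratio of all genes, 58 were higher in both genotypes and the wild-type ratio was the larger for 79. On the FPKM scale, 23.4% of all genes were higher with RU486 in wild type and 72.0% lower with it in the null. Counts over both genotypes together are not given here for all genes, so the counts above describe the members only.

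**Figure D3:**
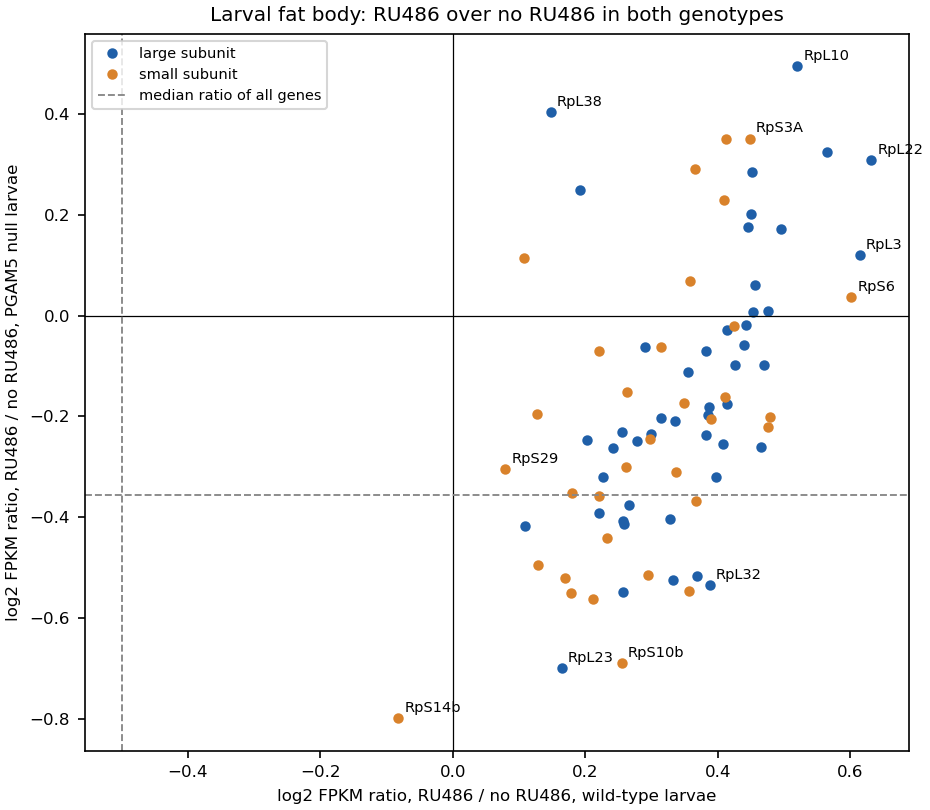
log2 ratio of FPKM with over without RU486 in larval fat body, wild type on the x axis and PGAM5 null on the y axis, 1 dot a gene (blue large subunit, orange small subunit; 6 low paralogues not drawn). Dashed lines mark the median ratio of all genes; nearly every dot lies right of 0 on the x axis, and the dots run from RpS14b to RpL10 across 0 on the y axis.

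Other tissue moved with the larval comparisons too. The 10 salivary gland genes, mostly glue proteins, held 4.80% of all FPKM with RU486 and 15.7% without it in null larvae, and 7.67% with RU486 and 14.5% without it in wild-type larvae, and none was at 0. The 28 gut digestive enzyme genes summed to 1262 FPKM with RU486 and 14828 without it in the null, and to 11622 with RU486 and 14077 without it in wild type. Jon44E, Jon65Ai, Jon65Aii, Jon99Ci, thetaTry, Mal-A7 and Mal-A8 were at 0 in the null library with RU486. Since FPKM is scaled to all mapped fragments of a library, these genes enter every larval ratio. The size of their part was not tested beyond the scaling given.

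Between genotypes without the drug, PGAM5 null larvae had higher ribosomal protein levels than wild type. Of 85 genes 80 were higher, where 35.3% of all genes were, with a median log2 ratio of 0.44 (a ratio of 1.36) against -0.15 for all genes. RpS21 was at 1971 FPKM in the null and 1082 in wild type, a ratio of 1.82 (1.73 to 1.92). RpS14b was at 855 in the null and 480 FPKM in wild type, and RpL32 at 2312 in the null and 1384 FPKM in wild type. The ratio for RpL32 was 1.67 (1.61 to 1.74), the highest after those of RpS21 and RpS14b. The lowest were those of RpS5b at 0.63 (0.48 to 0.81), RpS19b at 0.72 (0.55 to 0.94) and RpL10Aa at 0.85 (0.58 to 1.24).

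With RU486 the larval genotypes stood closer together, and the direction of the difference depended on scale. In the null, 63 of 82 genes were lower than in wild type, where 55.1% of all genes were, and the median log2 ratio was -0.07 against -0.05 for all genes. Against the median ratio of all genes the split was 54 lower and 28 higher, and without the 10 most abundant genes in the total it was 39 lower and 43 higher. RpL13A at 0.79 (0.76 to 0.82), RpS14a at 0.80 (0.76 to 0.84) and RpS10b at 0.81 (0.77 to 0.84) were lowest. RpL37b at 2.82 (1.73 to 4.60), RpS19b at 2.42 (1.67 to 3.49) and RpL10 at 1.12 (1.08 to 1.16) were highest of these 82, which leave out the genes below 10 FPKM in wild type. The comparisons of genotypes share libraries with those of the drug, and the wild-type larvae without RU486, which had the lowest share of the 4, enter 2 of them.

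In adult fat body the members differed by little and kept close together. In wild-type adults that had received RU486 as larvae, 78 of 81 genes were higher than in adults without it, where 41.1% of 5015 genes were. The median log2 ratio was 0.19, a ratio of 1.14, with an interquartile range of 0.09, beside -0.08 and 0.45 over all genes. RpS27, at 1902 FPKM after RU486 and 1470 without, had the highest ratio at 1.29 (1.25 to 1.34). RpS5a and RpS3A followed at 1.25 (1.21 to 1.28) and 1.24 (1.22 to 1.27). RpL32 was at 4132 after RU486 and 3396 FPKM without it. The 3 genes lower after RU486 were RpS5b, RpS15Ab and RpL34a, and the intervals of RpS15Ab, 0.80 to 1.14, and RpL34a, 0.88 to 1.06, include 1.

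In PGAM5 null adults the same comparison came close to 1 for most genes. After RU486, 62 of 81 genes were higher, where 40.5% of 4506 genes were, and the median log2 ratio was 0.04 (a ratio of 1.03), against -0.06 for all genes. Against the median ratio of all genes 73 of 81 were higher. RpL32 was at 4430 after RU486 and 4465 FPKM without it, and RpS6 at 2666 after RU486 and 2655 FPKM without it, with intervals of 0.97 to 1.02 and 0.98 to 1.03. RpL39, RpS3A and RpL37a were lowest at 0.89 (0.86 to 0.93), 0.92 (0.90 to 0.94) and 0.94 (0.92 to 0.96). RpS2 at 1.17 (1.14 to 1.20) and RpL34a at 1.16 (1.06 to 1.26) were highest after RpS5b, the 1 member of 81 that was at least 3-fold higher, beside 0.399% of all genes.

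PGAM5 null adults had higher ribosomal protein levels than wild type, both without RU486 and after it. Without it, 79 of 81 genes were higher, where 39.2% of all genes were, and the median log2 ratio was 0.30 (a ratio of 1.24), against -0.10 for all genes. RpL36 was at 3985 FPKM in the null and 2666 in wild type, a ratio of 1.49 (1.45 to 1.54), followed by RpS20 at 1.46 (1.41 to 1.51) and RpS27 at 1.45 (1.40 to 1.50). After RpS5b, RpLP2 at 0.998 (0.97 to 1.03) and RpS15Ab at 1.01 (0.84 to 1.20) were lowest. After RU486, 74 of 80 genes were higher in the null, where 41.2% of all genes were, with a median log2 ratio of 0.15 against -0.07. Apart from RpS5b, which was below 10 FPKM in wild type, RpS21, RpL34a and RpL10 were then highest at 1.34 (1.29 to 1.40), 1.29 (1.18 to 1.41) and 1.27 (1.24 to 1.31). RpS14a, RpS18 and RpL8 were lowest at 0.95 (0.92 to 0.98), 0.98 (0.96 to 1.01) and 0.99 (0.97 to 1.01).

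The wild-type adult library without RU486, which had the lowest share of the 4, enters the RU486 comparison in wild type and the comparison of genotypes without the drug. That library also had the most gut RNA. The 28 digestive enzyme genes summed to 8250 FPKM there, or 1.04% of its total, with none at 0. They summed to 78.6 FPKM in wild type after RU486, to 89.8 in the null without it and to 684 in the null after it. All 28 were lower in wild type after RU486 and in the null without it, where 58.9% and 60.8% of all genes were. Of the 28, 8 and 4 were at 0, with Jon65Aii, Jon66Cii, Jon99Ci and thetaTry at 0 in both. Their part in the ribosomal protein ratios was not tested.

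**Figure D4:**
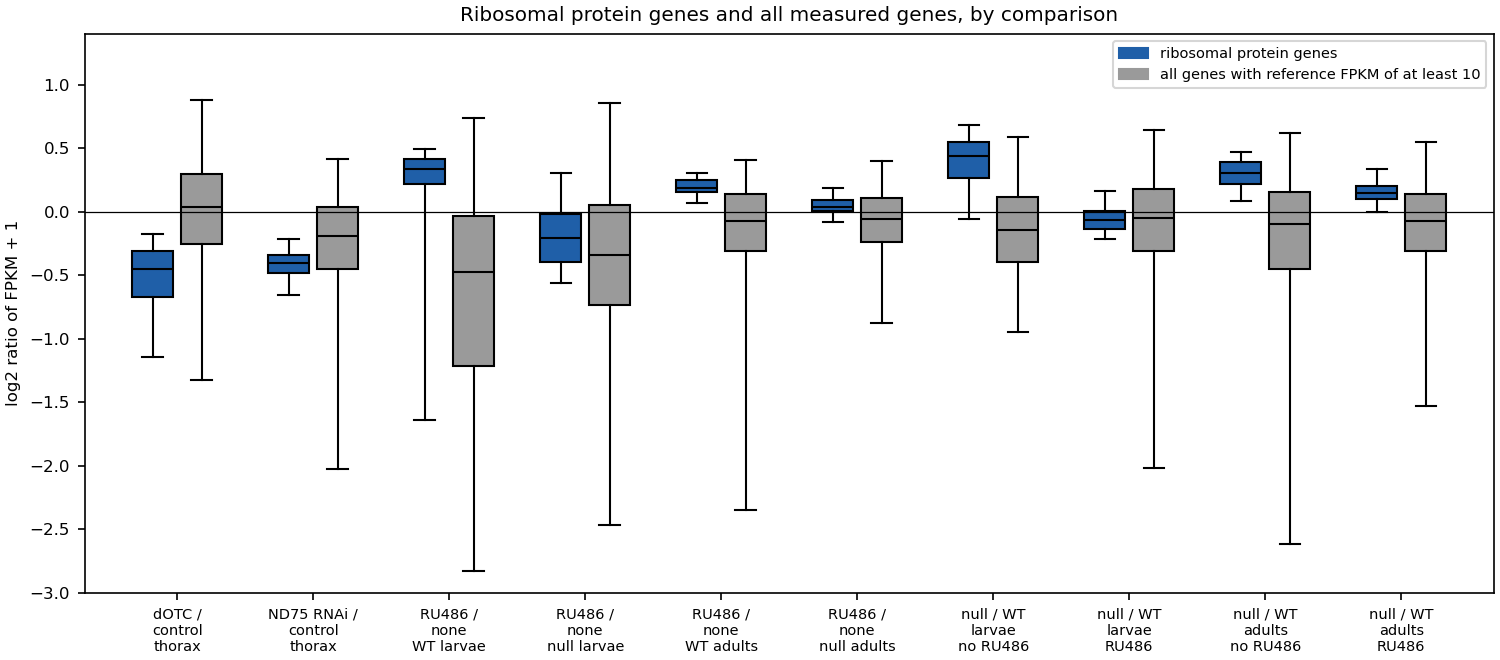
log2 ratios of FPKM + 1 in the 10 comparisons, for the ribosomal protein genes (blue, left) and for all genes with a reference value of at least 10 FPKM (grey, right); boxes span the quartiles, lines inside are medians, and whiskers reach the 5th and 95th percentiles. The members' boxes are narrower than those of all genes in every comparison, below 0 in thorax with medians of -0.45 and -0.41, and close to 0 in null adults.

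Members with a second role can be read across the same libraries. RpL40 and RpS27A are made as fusions with ubiquitin and so also supply that protein. In thorax RpL40 was at 751 FPKM under dOTC, 586 under ND75 RNAi and 849 in the control, and RpS27A at 1205, 1240 and 1581 FPKM. RpL40 was thus lower under ND75 RNAi than under dOTC, at ratios to the control of 0.69 (0.64 to 0.75) and 0.88 (0.83 to 0.94), whereas RpS27A had 0.78 (0.74 to 0.83) and 0.76 (0.72 to 0.80). In wild-type larvae with RU486 both were higher, at 1.18 (1.13 to 1.24) and 1.23 (1.19 to 1.27). In null larvae both were below 1 in FPKM but above the 0.791 of all genes, at 0.83 (0.79 to 0.88) and 0.84 (0.82 to 0.87).

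The stalk proteins RpLP0, RpLP1 and RpLP2 recruit elongation factors to the large subunit. In thorax RpLP0 was at 463 FPKM under dOTC, 542 under ND75 RNAi and 689 in the control. RpLP1 was at 1032, 1077 and 1650 FPKM, and RpLP2 at 680, 736 and 1162 FPKM. All 3 were lowest under dOTC, and the ratio of RpLP2 was 0.59 (0.55 to 0.62) there and 0.63 (0.59 to 0.68) under ND75 RNAi. The intervals of dOTC over ND75 RNAi, 0.90 to 1.02 for RpLP1 and 0.851 to 1.002 for RpLP2, include 1. In wild-type larvae their ratios with RU486 were 1.33 for RpLP0, 1.17 for RpLP1 and 1.20 for RpLP2. In null larvae they were 0.98, 0.80 and 0.75, on either side of the 0.791 of all genes.

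In the RU486 comparisons of fat body, RpL41 lay on the side of the members' median except in null adults. Its ratio there was 0.99 (0.97 to 1.02), beside a median ratio of 1.03 over the members. For dOTC over ND75 RNAi in thorax its ratio was 1.11 (1.04 to 1.18), beside 0.96. In null larvae RpL41 was at 6318 FPKM with RU486 and 6766 without, and in wild-type larvae at 7237 with RU486 and 5228 without. In adults it was at 16679 after RU486 and 16808 without it in the null, and at 14977 after RU486 and 12581 without it in wild type. The wild-type library without RU486 was the lowest of the 4 at both stages.

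Several members have a near copy elsewhere in the genome, and fragments of such pairs could have been divided between the copies in counting, so that the level of each is uncertain. RpL34a made up 31.9% of its pair with RpL34b under dOTC in thorax, 19.3% under ND75 RNAi and 22.2% in the control. In the fat body libraries this share was 20.4% to 27.9%. RpS14b made up 32.7% to 33.7% of its pair with RpS14a in thorax, where the 3 libraries hardly differed. In larvae the share was 33.4% with RU486 and 37.9% without it in the null, and 27.0% with RU486 and 32.4% without it in wild type. RpS15Ab was the lowest of the 80 genes in every library, at 44.4 to 88.4 FPKM, beside 664 to 2499 FPKM for RpS15Aa.

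RpS5b, a paralogue known from the fly germ line and egg chambers, varied more than any other member that was detected in all libraries. It was at 1.87 FPKM under dOTC and 4.51 under ND75 RNAi in thorax, against 42.8 in the control. In adult fat body it was at 125 after RU486 and 12.7 FPKM without it in the null, and at 9.01 after RU486 and 42.4 FPKM without it in wild type. Its ratio was 9.88 (7.57 to 13.1) in null adults and 0.21 (0.15 to 0.29) in wild-type adults. In larvae it was at 22.2 with RU486 and 23.5 FPKM without it in the null, and at 9.75 with RU486 and 37.6 FPKM without it in wild type. RpS5a, its abundant copy, was at 612, 667 and 867 FPKM in the same 3 thorax libraries and at 2020 to 2665 FPKM in adult fat body. RpS5b was therefore at most 4.71% of the pair in any library.

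The 25 ovary and eggshell genes summed to 47.8 FPKM under dOTC and 58.3 under ND75 RNAi, against 358 in the control thorax. Of the 20 measured, 17 and 18 were lower, where 46.7% and 71.5% of all genes were. Cp7Fc was at 0 in all 3 libraries, and Femcoat and Fcp3C in the control and under ND75 RNAi. In null adults the sum was 5547 FPKM after RU486 and 202 without it, with Fcp3C at 0 in both. All 24 measured were higher, where 40.5% of all genes were. In wild-type adults the sum was 117 after RU486 and 92.7 FPKM without it, whereas RpS5b was lower after RU486. The part of ovary RNA in the values of RpS5b and of the other members was not tested.

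RpS19b, RpL37b, RpS10a, RpL10Aa and RpS28a, copies described from gonads, were seen in larvae and were at most 0.75 FPKM in thorax and adult fat body. In wild-type larvae RpL37b was at 15.1 FPKM with RU486 and 64.2 without, RpS19b at 14.1 with RU486 and 46.2 without, and the ratio of RpS10a was 0.18 (0.10 to 0.31). RpL10Aa was at 2.60 with RU486 and 17.8 FPKM without. Each was lower with the drug in wild type, by ratios of 0.15 to 0.31. In null larvae RpL37b was at 42.6 with RU486 and 59.5 without, RpS19b at 34.1 with RU486 and 33.2 without, and RpS10a at 19.6 with RU486 and 27.5 FPKM without. RpS28a was listed at 0 in both larval libraries with RU486, and without it at 9.48 FPKM in the null and 9.94 FPKM in wild type.

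The 19 testis genes varied likewise. They summed to 631 FPKM with RU486 and 896 without it in null larvae, and to 152 with RU486 and 1146 without it in wild-type larvae. None was at 0 in larvae. In wild-type larvae all 19 were lower with the drug, where 76.6% of all genes were. In thorax and adult fat body the testis genes summed to at most 3.12 FPKM, with 11 to 17 of the 19 at 0. The wild-type larvae with RU486 were the lowest larval library for this sum and for all 5 paralogues but RpS28a, which was at 0 in both RU486 libraries. The part of testis RNA in these paralogues was not tested. These 6 low paralogues carry little weight in the group: leaving them out moved no median beyond its counting interval, as defined at the end.

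**Figure D5:**
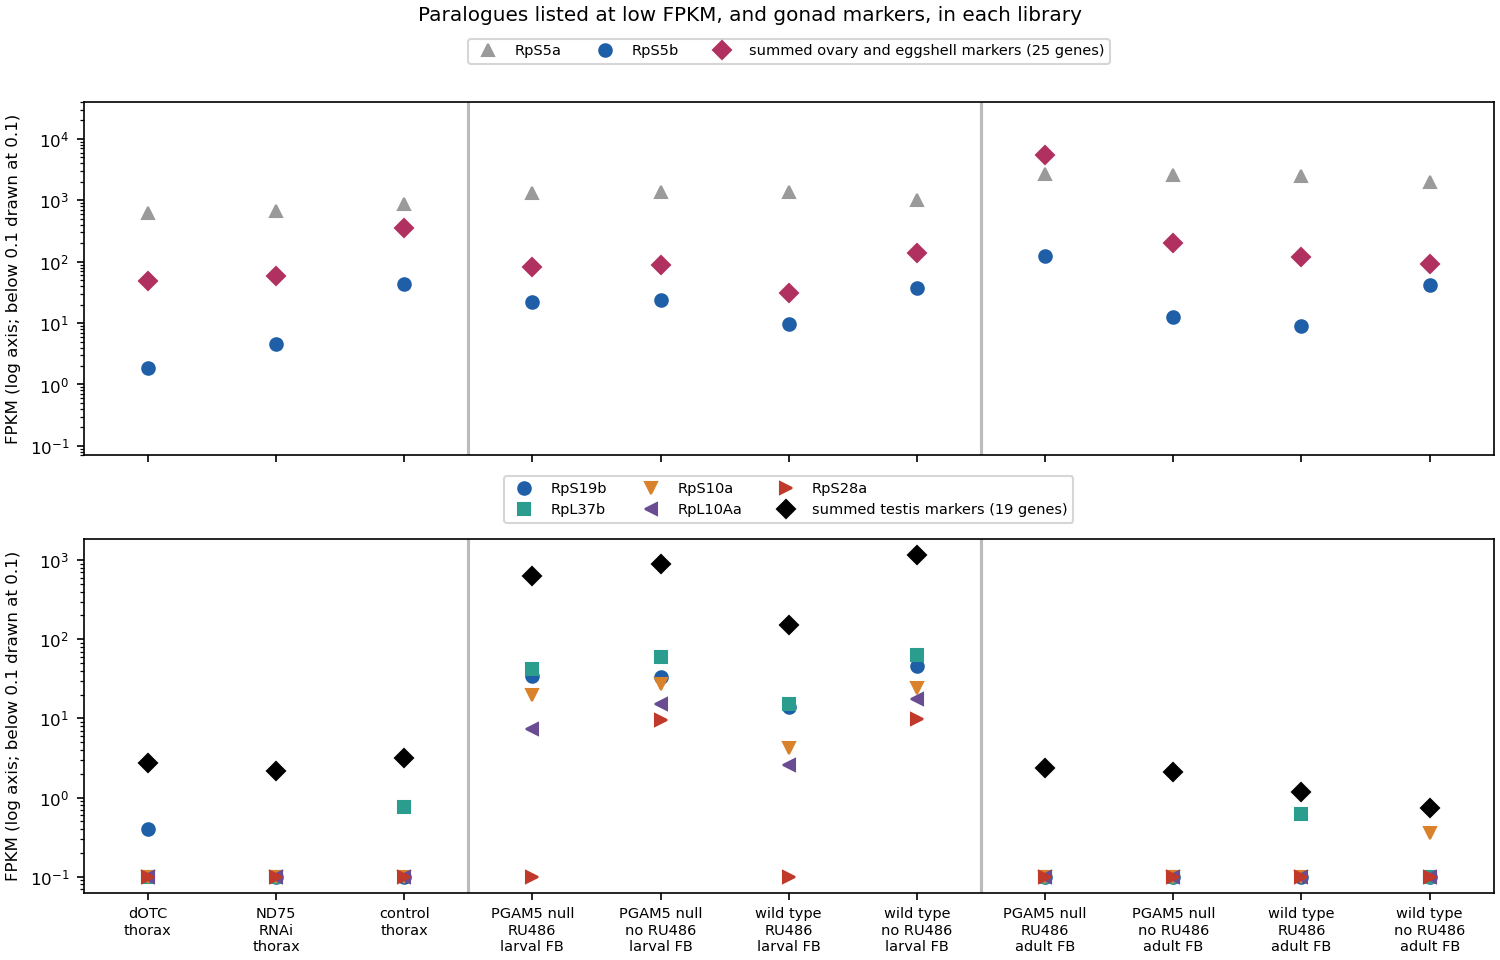
FPKM (log axis, values below 0.1 drawn at 0.1) in the 11 libraries: above, RpS5b, its copy RpS5a and the sum of 25 ovary and eggshell genes; below, 5 further paralogues and the sum of 19 testis genes. RpS5b and the ovary sum are both highest in PGAM5 null adults after RU486, at 125 and 5547 FPKM, and the 5 lower paralogues and the testis sum are near 0 outside the larval libraries.

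Other genes of the ribosome and of translation did not all follow the members. sta and Rack1 encode proteins of the small subunit but carry no Rp symbol. In thorax sta was at 528 FPKM under dOTC, 670 under ND75 RNAi and 1026 in the control, and Rack1 at 727, 786 and 1004 FPKM. In wild-type larvae their ratios with RU486 were 1.51 (1.47 to 1.56) for sta and 1.43 (1.39 to 1.48) for Rack1. Both genes thus lay on the members' side in those libraries. In null larvae they were at 1.11 (1.07 to 1.16) and 1.03 (0.99 to 1.07).

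Of the 5 symbols left out by the rule, RpL24-like, whose yeast counterpart acts in 60S assembly, was at 360.5 FPKM under dOTC, 128 under ND75 RNAi and 253 in the control. It was above the control under dOTC, at 1.42 (1.30 to 1.56), and below it under ND75 RNAi, at 0.50 (0.43 to 0.58). RpL22-like, a germ line protein, was at 6.18 FPKM with RU486 and 28.5 without it in wild-type larvae.

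Elongation and termination factors were followed through 9 genes. In thorax 7 of 9 were lower with dOTC and 6 of 9 with ND75 RNAi, where 46.7% and 71.5% of all genes were. Their medians were -0.19 and -0.24, beside 0.03 and -0.19 over all genes. Ef1gamma, a subunit of the complex that recharges the factor carrying tRNA to the ribosome, was at 291 FPKM under dOTC, 377 under ND75 RNAi and 469 in the control. With RU486 8 of 9 were higher in null larvae and 7 of 9 in wild-type larvae, where 28.0% and 23.4% of all genes were. The medians of the 9 were 0.33 and 0.29, beside -0.34 and -0.48 over all genes. On the FPKM scale this list thus stood above 1 in null larvae, where most ribosomal protein genes stood below it.

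Of 27 initiation factor genes measured, 16 were lower with dOTC and 26 with ND75 RNAi, where 46.7% and 71.5% of all genes were. Their medians were -0.13 and -0.28, beside 0.03 and -0.19 over all genes. Paip2, which binds poly(A)-binding protein and restrains initiation, was at 172 FPKM under dOTC, 69.4 under ND75 RNAi and 74.3 in the control, a ratio of 2.32 (2.09 to 2.57) under dOTC. eIF4G, the scaffold of the cap-binding complex, was at 59.0 FPKM with RU486 and 25.2 without it in null larvae and at 61.9 with RU486 and 42.8 without it in wild type.

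Genes for ribosome assembly and RNA polymerase I numbered 33. With dOTC 16 were lower and 17 higher, a median of 0.01, where 46.7% of all genes were lower with a median of 0.03. With ND75 RNAi 29 were lower, a median of -0.43, where 71.5% of all genes were, with a median of -0.19. Nop60B, the pseudouridine synthase of ribosomal RNA, was at 16.2 FPKM under dOTC, 8.59 under ND75 RNAi and 21.9 in the control. Fib, the methyltransferase fibrillarin, was at 52.4 after RU486 and 31.4 FPKM without it in null adults, and at a ratio of 0.62 (0.51 to 0.76) in wild-type adults. Of the 33, 31 were higher after RU486 in null adults, where 40.5% of all genes were, and 11 in wild-type adults, where 41.1% were. The null adults after RU486 were also the library with the highest ovary and eggshell sum. The part of ovary RNA in these counts was not tested. In wild-type larvae 22 of the 33 were lower with RU486, where 76.6% of all genes were. Their median of -0.20 lay above the -0.48 of all genes.

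Mitochondrial ribosomal protein genes served as a set of similar size. Of 72, 49 were lower with dOTC and 47 with ND75 RNAi, where 46.7% and 71.5% of all genes were. Their medians were -0.19 and -0.13, beside 0.03 and -0.19 over all genes. With ND75 RNAi their median was thus above that of all genes. Their median log2 ratios with RU486 were 0.0061 in null larvae and 0.0048 in wild-type larvae, above the -0.34 and -0.48 of all genes. All 72 were at 1 FPKM or more in every library. Among regulators, Thor, the 4E-BP translation repressor, was at 2682 FPKM under dOTC, 1472 under ND75 RNAi and 1130 in the control. dm, the fly Myc factor that drives ribosome production, was at 22.9 after RU486 and 56.6 FPKM without it in wild-type adults, where the ribosomal protein genes were higher after RU486. In null adults dm was at 35.9 after RU486 and 30.0 FPKM without it.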

How the data were processed

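FPKM values of 15603 genes in 11 libraries were used in the 3 tables as the authors deposited them. Per the labels and the study's methods, TruSeq libraries from 15 animals each were aligned with Bowtie and TopHat to genome release 5.2 and quantified with Cufflinks; versions are not given in the sources used here. FPKM are scaled to the mapped fragments of a library, so an abundant tissue-specific message lowers all others.

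Ratios were taken within a table, as log2 of FPKM + 1 for genes at 1 FPKM or more in either library, with all genes at a reference FPKM of 10 or more as background. Fragment numbers were estimated from the steps of low values, which fell within 0.1 of whole numbers for 80.0% to 85.1% of the low values of single-transcript genes, and gave 95% intervals. They hold no variation between animals. Transcript lengths came from a newer annotation, matched by ID for 82 members and by symbol for 5. Python 3.11, numpy and scipy were used, and the code was tested on simulated data.

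Members, lists and the naming rule were chosen with earlier results of these data known. The text names, per comparison, the 3 genes at either end of the ratios, RpL32, RpS6, the ubiquitin fusions, the stalk proteins, RpL41, paralogues, and the most changed genes of each list. Gene lists for other cell types (fat body, hemocytes) summed to 13.3% and 0.0629% of FPKM at most in adult fat body. Promoter and protein sequences were not analysed here.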

Additional observations from a re-analysis of the deposited data

Results flagged for a closer look

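RU486 went with opposite directions of the median ribosomal protein ratio in larval fat body of PGAM5 null and wild-type animals: the median log2 ratio was -0.21 in the null and 0.33 in wild type, and wild type minus null was 0.54. The difference was not tested, since each condition was 1 library. The members' share of all FPKM was higher with RU486 in both genotypes, at 15.3% against 13.7% in the null and 16.6% against 11.2% in wild type. After scaling to the median ratio of all genes both medians were above 0, at 0.15 in the null and 0.83 in wild type, and after leaving the 10 most abundant genes out of the total they were 0.065 in the null and 0.40 in wild type.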

How the results depend on the processing

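Pseudocounts of 0.1 and 10 FPKM, no filter on low values, a reference of at least 10 FPKM, and leaving out members with a paralogue, members with transcripts below 500 bases or the 6 low paralogues (the last chosen after seeing the data) moved none of the 11 medians beyond its counting interval. Scaling changed more. With the median ratio of all genes as the scale, the median log2 ratio of members was -0.21 for ND75 RNAi over control, 0.83 for RU486 in wild-type larvae, 0.15 (a change of sign) in null larvae, 0.27 in wild-type and 0.10 in null adults, 0.59 for null over wild-type larvae without RU486, 0.41 and 0.22 for null over wild-type adults without and after RU486, and -0.28 for dOTC over ND75 RNAi. With the 10 most abundant genes left out of the total it was 0.40 in wild-type larvae, 0.065 (a change of sign) in null larvae, 0.35 for null over wild-type larvae without RU486 and 0.012 (a change of sign) with it. Counts of members at least 2-fold lower became 2 with a reference of 1 FPKM and 0 with median scaling in null larvae, against 1, and 1 with a reference of 1 FPKM for dOTC over ND75 RNAi, against 0. Without the 10 most abundant genes the share of members was 11.9% under dOTC, 12.5% under ND75 RNAi and 16.5% in control thorax. With RU486 and without it, the share was 25.9% and 25.3% in null larvae, 25.9% and 19.4% in wild-type larvae, 35.8% and 35.1% in null adults, and 33.1% and 28.4% in wild-type adults. No paired analysis was possible because each condition was 1 library, and no replicate could be left out. The search for a promoter motif was not run. At 10 FPKM a transcript of 1 kb rests on 29.5 to 86.8 fragments, which limits the low paralogues most.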
